A study of Homo sapiens with 346 samples.

Results

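The genes described here encode the factors of translation initiation and elongation. They were taken as the rows of the gene tables whose symbol begins with EIF1 to EIF6, EEF1 or EEF2, without the Y-linked gene, antisense genes, pseudogenes and the EIF2AK kinases. Of 72 symbols that matched, 11 were left out (4 kinases, 1 Y-linked gene, 4 antisense genes and 2 pseudogenes), which left 61 of the 31463 genes listed in either table. All 61 had a row for HCT-116 and 60 had a row for HepG2, where EIF4E1B was not listed. In RefSeq 60 of them are protein-coding, and EEF1E1-BLOC1S5 is a readthrough transcript. The study asked whether methanol fixation alters the RNA profile of single cells. It profiled single cells of HCT-116, an established colon carcinoma line, and of cells labelled HepG2, an established liver tumour line, by full-length Smart-seq2 sequencing. For each line the cells were either sorted alive or fixed in 80% methanol, kept cold for 1 week and then sorted, and the fixed cells came from the same culture as the live ones. The tables hold 91 live and 92 fixed HCT-116 cells, and 68 live and 83 fixed HepG2 cells. HCT-116 was done once, and the labels do not tell the repeats of the HepG2 experiment apart, so each line and treatment counted as 1 sample, values are given as a spread over cells, and no p-value was computed. The libraries of live and fixed cells were made in separate batches, so batch and fixation cannot be told apart.

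Initiation begins when eIF2, carrying GTP and the initiator tRNA, joins the small ribosomal subunit together with eIF1, eIF1A, eIF3 and eIF5. The eIF4F complex, made of the cap-binding protein eIF4E, the scaffold eIF4G and the helicase eIF4A, brings the mRNA to this subunit, and eIF5B then joins the large subunit at the start codon. In elongation, eEF1A delivers aminoacyl-tRNA, eEF1B recharges eEF1A with GTP, eEF2 moves the ribosome by a codon, and eIF5A relieves ribosomes that stall. The mRNAs of several elongation factors are known to start with a pyrimidine tract that puts their translation under mTOR, and these genes are among the most abundant mRNAs of dividing cells.

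Levels are given in TPM, the number of transcripts of a gene scaled to a fixed total in each cell. The scale is per transcript length, so genes of a cell can be compared on it. EEF1A1, the main gene for eEF1A, was the most abundant member in every group and stood at rank 15 of 28806 listed genes in live HCT-116 cells, rank 10 in fixed HCT-116 cells, rank 36 of 29551 in live HepG2 cells and rank 25 in fixed HepG2 cells. The levels of the 61 genes summed to 13345 ± 1331 TPM (mean ± SD over cells) in live HCT-116 cells and to 17804 ± 2386 TPM in fixed ones. In HepG2 the sums were 8317 ± 1364 TPM live and 10387 ± 1559 TPM fixed. The sum was therefore higher in fixed than in live cells of both lines, and higher in HCT-116 than in HepG2. Ribosomal RNA took 25.6% of the TPM of live HCT-116 cells and 7.78% of fixed ones, and 5.52% and 2.33% in HepG2. With ribosomal RNA left out and each cell rescaled, the mean sums were 18161 and 19516 TPM in HCT-116 and 10079 and 11155 TPM in HepG2, so most of the gap between live and fixed HCT-116 cells was not present on that scale. The genes listed held a mean of 99.3% and 99% of the TPM total of live and fixed HCT-116 cells, but 88% and 95.5% of that of live and fixed HepG2 cells, and the rescaling closed this difference too.

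**Figure D1:**
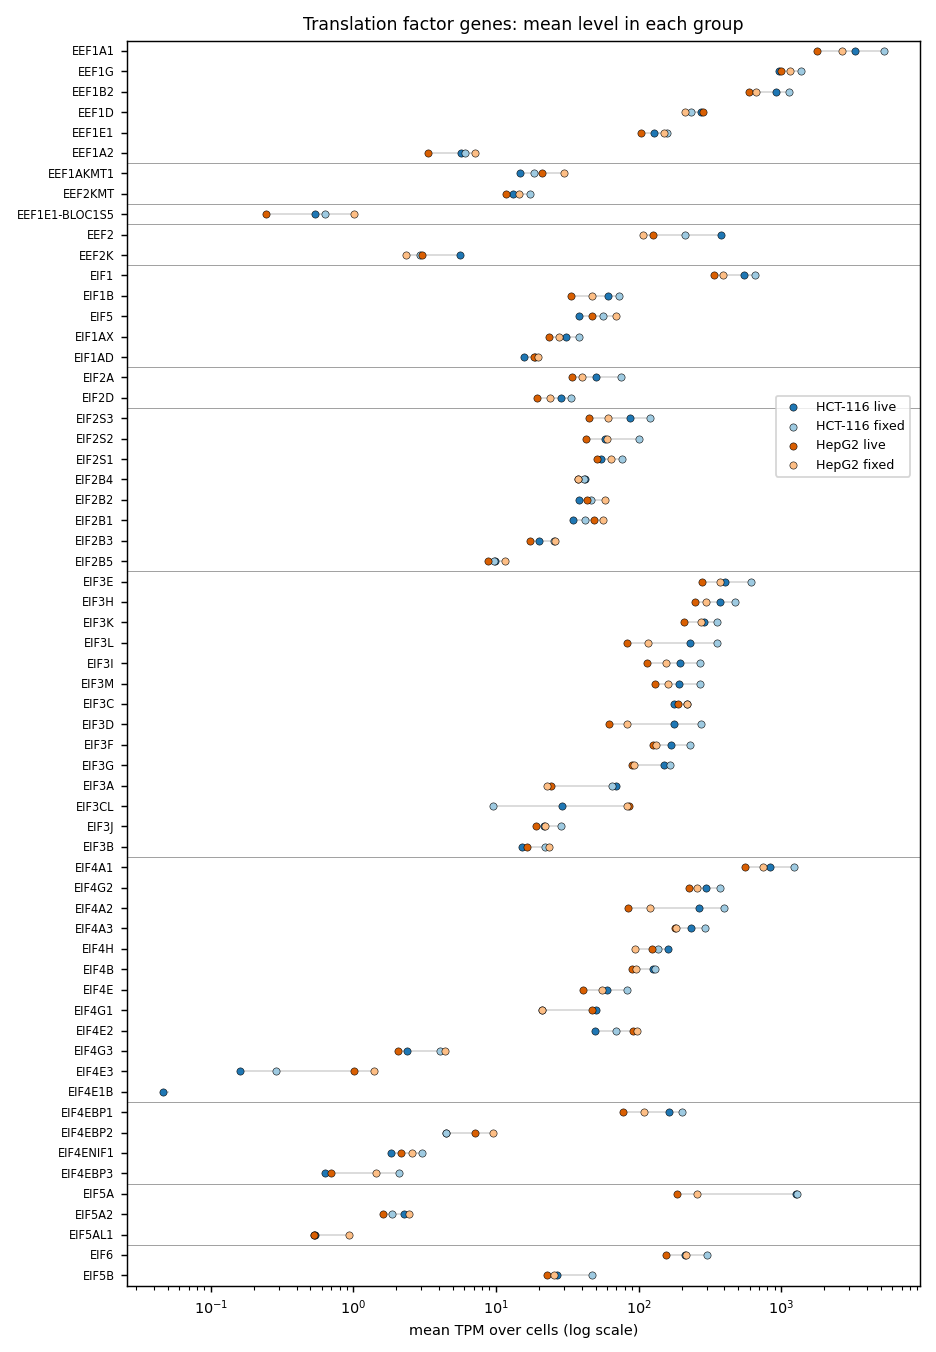
Mean TPM over cells (log scale) of each translation factor gene in the 4 groups, 1 row a gene, with horizontal lines between the functional groups; a mean of 0 is not drawn. EEF1A1 is the most abundant of them in each group (3279, 5291, 1796 and 2687 TPM), and EIF5A lies far higher in HCT-116 (1268 and 1290 TPM) than in HepG2 (187.1 and 255.6 TPM).

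Depth and sample checks touch these values as follows. The median cell of HCT-116 had 2500000 reads when live and 1800000 when fixed, and that of HepG2 had 2400000 and 2000000. The lowest share of reads assigned to listed transcripts was 20.5%, in a live HepG2 cell, where the median of that group was 75.7%. None of 9 hepatocyte marker genes with a row (of 18 listed) was above 1 TPM in 50% of the HepG2 cells of either treatment, with a median summed level of 0.0955 TPM live and 0 TPM fixed, whereas 9 of 10 luminal breast epithelium genes were. The line is called HepG2 here only as its label. A live and a fixed HepG2 cell hold equal values, and 6 further fixed HepG2 cells are very similar to another (Pearson r above 0.95). These cells were kept, and counts without them are given below.

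Each comparison takes the ratio of mean TPM and expresses it relative to the median gene compared, that is, a gene with a mean TPM of at least 1 over both groups and a mean above 0 in each. A gene is called higher or lower at 1.5-fold or more (0.58 on the log2 scale). Before this step the median gene was 0.17 (log2) higher in fixed than in live HCT-116 cells and 0.15 higher in HepG2. TPM values, and counts of cells above or below every live cell, are on the scale before this step and so include that shift.

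In fixed HCT-116 cells 4 of the 57 members compared were at least 1.5-fold higher than in live cells, where 5.99% of all 11742 genes were, and 4 were lower, where 20.6% of all genes were. The higher genes were EIF4EBP3, EIF5B, EIF2S2 and EIF4G3, and the lower genes were EIF3CL, EIF4G1, EEF2K and EEF2. The members' median was 0.16 (log2) and 42 of 57 lay above the median gene. Among genes at 20 TPM or more the median was 0.12 over all 3516 and 0.17 over the 44 members. Of these members 35 lay above the median gene, where 65.2% of all such genes did. At 100 TPM or more 21 of 27 members did, where 77.7% of all 931 genes did, and the medians were 0.16 and 0.17. The split of the calls depends on the scaling. Without reference to the median gene 10 members were higher (12% of all genes) and 4 lower (16.2%). Against the median of genes at 20 TPM or more 1 was higher (3.91% of all genes) and 4 lower (24.5%), and with ribosomal RNA left out and no reference to the median gene 1 was higher (3.83%) and 5 lower (26.7%). It also depends on the summary over cells, since with means of log2(TPM + 1) 10 members were higher, where 3.65% of all genes were, and with means of log2(TPM + 0.1) 22 were, where 13.4% were.

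In fixed HepG2 cells 3 of 58 members were at least 1.5-fold higher than in live cells, where 9.71% of all 12418 genes were, and 1 was lower, where 21% were. EEF1A2, EIF4G3 and EIF4EBP3 were higher and EIF4G1 was lower, and the counts were 3 and 1 also without the equal and very similar cells. The members' median was 0.17 (log2), 44 of 58 lay above the median gene, and at 20 TPM or more the median was 0.13 both for the 46 members and for all 3538 genes. Of these members 34 lay above the median gene, where 64% of all such genes did. At 100 TPM or more 16 of 21 members did, where 79.1% of all 930 genes did, and the medians were 0.13 and 0.22. Against the median of genes at 20 TPM or more 3 members were higher (6.86% of all genes) and 4 lower (25.3%), and with ribosomal RNA left out and no reference to the median gene 3 were higher (9.21%) and 2 lower (22.5%).

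The lines share no cells, so their changes can be set side by side. Across the 57 genes compared in both lines, Pearson's r of the relative log2 changes was 0.666 and Spearman's rho 0.492, against 0.612 and 0.557 across 10392 genes. Of the 57, 38 lay above the median gene in both lines and 10 below it in both. So 84.2% were on the same side, where 71.7% of all 10392 genes were. Of the members, 73.7% lay above the median gene in HCT-116 and 75.9% in HepG2 in any case. EIF4G3 and EIF4EBP3 were called higher and EIF4G1 lower in both. The genes are not independent of each other, and each line's libraries share the batch split between live and fixed cells.

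**Figure D2:**
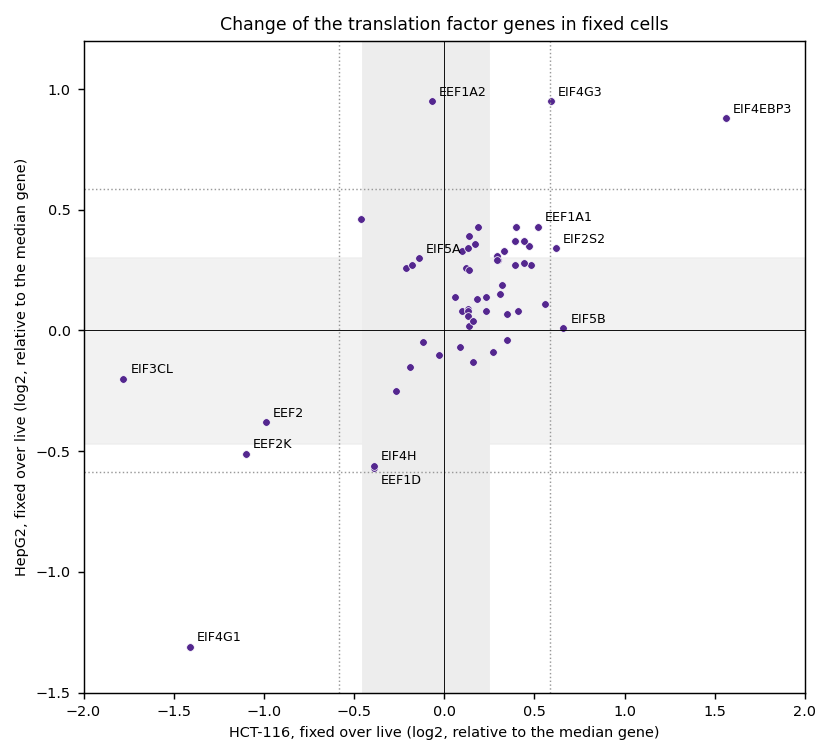
Relative log2 change (fixed over live) of 57 translation factor genes in HCT-116 (horizontal) and HepG2 (vertical). Dotted lines mark 1.5-fold and grey bands the middle 50% of all genes; EIF4G1 stands alone at the lower left (-1.41 and -1.31), and most members lie above 0 in both lines.

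The scaffold eIF4G gave the clearest contrast between related genes. EIF4G1, whose product bridges the cap-binding protein, the helicase and the ribosome, was at 16.3, 48.7 and 124.6 TPM (lowest, median and highest cell) in live HCT-116 cells and at 4.32, 19.2 and 56.9 TPM in fixed ones. In HepG2 the same values were 0.434, 44.6 and 90.2 TPM live and 0.229, 19 and 50.5 TPM fixed. The groups overlapped, but 33 of 92 fixed HCT-116 cells were below every live cell and in HepG2 2 of 83 fixed cells were. Such a count hangs on the lowest live cell, which in HepG2 was at 0.434 TPM, far under its group's median of 44.6 TPM. The counts of the lines are therefore not alike. In both lines the mean was near 50 TPM in live cells (50 ± 19.5 and 47.2 ± 18.2) and 21.1 TPM in fixed cells (SD 10.7 and 12.9). Relative to the median gene EIF4G1 was 2.66-fold lower in fixed HCT-116 cells and 2.47-fold lower in fixed HepG2 cells. It was called lower under each of the 12 and 14 alternative settings run for these comparisons, from -1.56 to -1.12 in HCT-116 and from -1.44 to -1.10 in HepG2 (log2).

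EIF4G3, a less abundant scaffold of the same family, went the other way. Its cells were at 0, 2.07 and 8.90 TPM live and 0, 3.18 and 17.4 TPM fixed in HCT-116, and at 0, 1.81 and 9.17 TPM live and 0, 3.76 and 21.5 TPM fixed in HepG2. The groups overlapped almost wholly in HCT-116, where 10 of 92 fixed cells were above every live cell. The relative change was 0.59 (log2, 1.51-fold higher) in HCT-116, just past the threshold and called under 7 of 11 alternatives, and 0.95 (1.93-fold) in HepG2, called under all 13 alternatives that compared it. EIF4G2, the related factor that lacks the cap-binding protein's site and serves alternative initiation, was the most abundant of the family and stayed near the median gene, at 295.0 ± 83.4 TPM live and 371.0 ± 117.8 TPM fixed in HCT-116 (0.16, log2) and 225.6 ± 107.7 and 257.5 ± 92.8 TPM in HepG2 (0.04). EIF4G1 was thus called lower and EIF4G2 was not called in either line. EIF4G3 was called higher in both, but stood clear of EIF4G2 over all settings only in HepG2. In HCT-116 their ranges over the settings overlapped, at 0.45 to 0.83 for EIF4G3 and 0.02 to 0.51 for EIF4G2.

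The transcript tables add detail on EIF4G1. They hold CPM, read counts scaled to a fixed total in each cell and not divided by length. The transcript NM_198241.2 carried 70.1% of the gene's CPM in live HCT-116 cells and 73.3% in fixed ones. In live HepG2 cells another curated transcript, NM_198244.2, held the largest share, 39%, and NM_198241.2 held 32.8%. In fixed HepG2 cells these shares were 16.8% and 50.3%. The mean CPM of NM_198244.2 was 87.3 ± 55.3 live and 16.3 ± 26.4 fixed, and that of NM_198241.2 was 73.5 ± 47.2 and 48.7 ± 43.4, so the lower EIF4G1 level of fixed HepG2 cells lay mostly in the first of these. Transcripts of a gene share most of their sequence, and their split is an estimate of the quantification, not a count of reads unique to each.

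**Figure D3:**
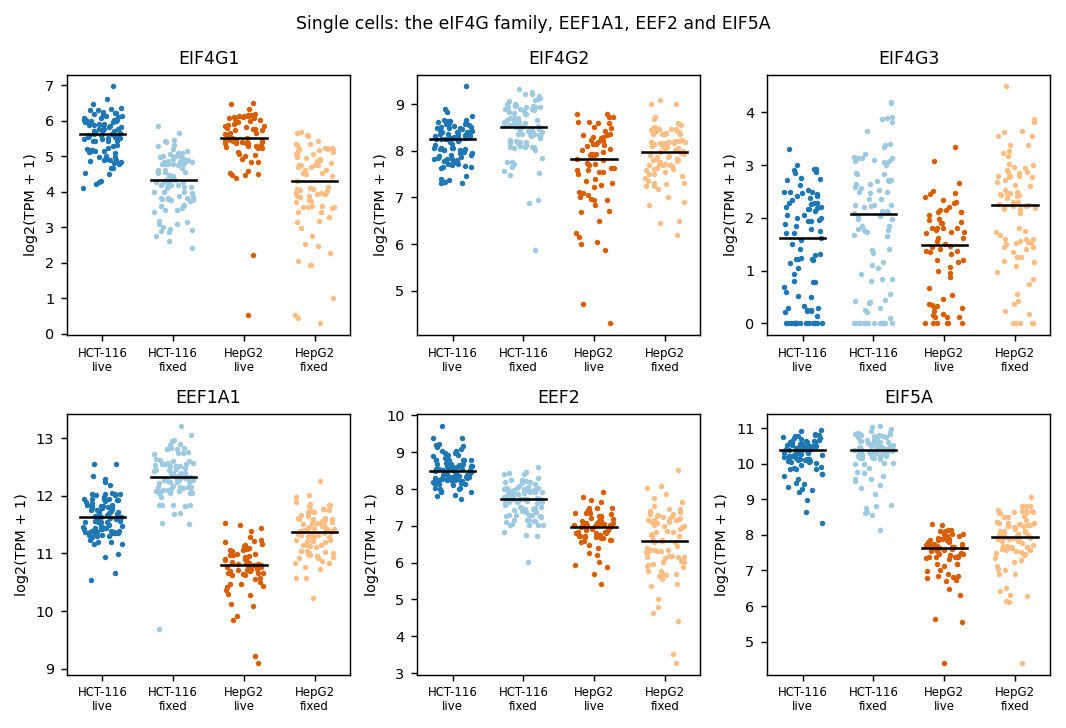
Single cells as points, log2(TPM + 1) on the vertical axis, for the eIF4G family, EEF1A1, EEF2 and EIF5A in the 4 groups, with a bar at the median. Median EIF4G1 was 48.7 TPM live against 19.2 TPM fixed in HCT-116 and 44.6 against 19 TPM in HepG2, while EEF1A1 medians were higher in fixed cells (3180 against 5134 TPM, and 1791 against 2655 TPM).

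Among the other eIF4F genes, no further member passed 1.5-fold in either line. EIF4A1, the main helicase gene, had means of 832.7 and 1228 TPM in HCT-116, live and fixed (0.39, log2 relative), and 556.5 and 742.6 TPM in HepG2 (0.27). Its paralog EIF4A2 lay at 0.44 and 0.37, with means of 263.2 and 400.3 TPM in HCT-116 and of 84.4 and 121.1 TPM in HepG2. EIF4A3, the helicase of the exon junction complex, lay at 0.16 and -0.13. EIF4H, which stimulates the helicase, was below the median gene in both lines, at -0.39 in HCT-116 (160.3 and 137.2 TPM) and -0.56 in HepG2 (94.1 TPM in fixed cells), the latter just short of the threshold. EIF4B, with the same role, was at -0.12 and -0.05. EIF4A1 and EIF4A2 thus lay above the median gene in both lines, and EIF4H and EIF4B below it.

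The cap-binding genes differed in level more than in their change. EIF4E, the cap-binding protein, was at 60 and 82.3 TPM in HCT-116 (live and fixed) and 41 and 55.4 TPM in HepG2, a relative change of 0.29 in each line. EIF4E2, a homologue tied to repression, was at 49.1 and 70 TPM (0.35) and at 90.9 and 97.6 TPM (-0.04). EIF4E3 was above 0 in 22% of live HCT-116 cells and 63.2% of live HepG2 cells, and its mean never exceeded 1.39 TPM. EIF4E1B had a value above 0 in 2 of 91 live HCT-116 cells and in 0 of 92 fixed ones, which allows a share of cells with a value above 0 of up to 3.26% (3 counts, counting error only). Neither could be compared in HCT-116, where their means were below 1 TPM.

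The repressors that hold eIF4E away from eIF4G were carried by EIF4EBP1, at 162.8 ± 81 TPM live and 200.5 ± 103.6 TPM fixed in HCT-116 (0.13) and 77.2 ± 56.7 and 108.6 ± 56.3 TPM in HepG2 (0.34). EIF4EBP2 lay at -0.18 and 0.27. EIF4EBP3 had the highest relative change of any member in HCT-116, 1.56 (log2), and 0.88 in HepG2, but rested on few cells. It was above 0 in 28.6% of live and 31.5% of fixed HCT-116 cells and in 22.1% and 28.9% of HepG2 cells, with a median of 0 TPM in every group and highest cells of 9.39 and 24.8 TPM in HCT-116 and 9.44 and 17.2 TPM in HepG2. With cells paired on total reads its HepG2 change was -0.07, so its call in HepG2 hangs on which cells are compared. EIF4ENIF1, the transporter of eIF4E, was just under the threshold in HCT-116 (0.56) and at 0.11 in HepG2.

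The elongation factors split between eEF1A and eEF2. EEF1A1 was at 1490, 3180 and 5994 TPM (lowest, median and highest cell) in live HCT-116 cells and at 827.5, 5134 and 9497 TPM in fixed ones, and 21 of 92 fixed cells were above every live cell. In HepG2 it was at 550.9, 1791 and 2947 TPM live and 1198, 2655 and 4872 TPM fixed, with 27 of 83 fixed cells above every live cell. Its relative change was 0.52 (1.44-fold) and 0.43 (1.35-fold), below the threshold in both lines although 5 of 12 alternatives in HCT-116 and 2 of 14 in HepG2 called it higher and the mean TPM itself was 1.61 times that of live cells in HCT-116. EEF1A2, the form of muscle and neurons, was near 6 TPM in HCT-116 (5.68 and 6.09 TPM, relative change -0.07), and in HepG2 it was at 3.36 ± 3.39 TPM live and 7.17 ± 8.06 TPM fixed, a change of 0.95 (1.93-fold higher) that all 14 alternatives called. EEF1A2 thus stayed far below EEF1A1 in each group.

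EEF2, which moves the ribosome along the mRNA, was lower in fixed HCT-116 cells. Its cells were at 209.7, 361.7 and 844.2 TPM live and at 64.2, 211.6 and 387.2 TPM fixed, and 42 of 92 fixed cells lay below every live cell. The relative change was -0.99 (1.99-fold lower), called under all 12 alternatives (-1.15 to -0.63). In HepG2 its cells were at 42.2, 125.2 and 241.0 TPM live and 8.72, 95.4 and 365.2 TPM fixed, the groups overlapped widely, and the change was -0.38, short of the threshold. EEF2K, the kinase that inactivates eEF2, was at 5.63 and 2.94 TPM in HCT-116 (-1.10, 2.15-fold lower) and at 3.02 and 2.35 TPM in HepG2 (-0.51, called lower under 4 of 13 alternatives, down to -1.30). The difference between the lines was 0.61 (log2) for EEF2 and 0.59 for EEF2K, of which the latter depends on the setting, and was not tested.

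The subunits of the exchange factor eEF1B did not move as a block. EEF1B2, its catalytic alpha subunit, was at 920.9 and 1135 TPM in HCT-116 (0.14) and 594.8 and 666.7 TPM in HepG2 (0.02). EEF1G, the gamma subunit, was at 965.5 and 1378 TPM (0.35) and 995.3 and 1159 TPM (0.07). EEF1D, the delta subunit, was the lowest of them relative to the median gene in both lines, at -0.39 (271.9 and 232.1 TPM) and -0.57 (283.4 and 211.9 TPM). EEF1E1, which despite its name belongs to the aminoacyl-tRNA synthetase complex, lay at 0.14 and 0.39. The methyltransferase genes EEF1AKMT1 and EEF2KMT lay between 0.14 and 0.36 in both lines, and the readthrough EEF1E1-BLOC1S5 was not compared because its mean was below 1 TPM over both groups.

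An annotated start of the mRNA is shown for genes named above because a tract of pyrimidines there is the known mark of translation control of this class. Each line gives 15 bases before and 15 bases from an annotated start (GRCh38.p14, RefSeq), 5′ to 3′ on the strand of the gene, and capitals mark the tract, a C followed only by C or T bases, at least 5 bases long, with its first base within 5 bases of the start. EIF4G1 has 3 such windows and EEF1B2 has 2, and the window with the longest tract is shown. The tract of EEF1B2 is 16 bases long and runs past the end of its line. That of EIF4G1 begins before the annotated start.
EEF1A1 (chr6:73521018-73521047, minus strand): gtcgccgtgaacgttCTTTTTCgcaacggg
EEF2 (chr19:3985449-3985478, minus strand): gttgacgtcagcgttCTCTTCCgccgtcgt
EEF1B2 (chr2:206159880-206159909, plus strand): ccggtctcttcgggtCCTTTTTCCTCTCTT
EIF4G1 (chr3:184315149-184315178, plus strand): cctccgggccgaCCCTCacttgcctgaaac
EIF4A1 (chr17:7572810-7572839, plus strand): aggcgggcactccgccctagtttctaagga
Such a tract, read on the strand of the gene only, was found at an annotated start of 23 of the 49 members with a sequence (46.9%) and of 25.2% of 27305 genes. The latter include genes too low to be compared here. Among genes compared in HCT-116, 22 members had the tract and 23 did not, beside 2501 and 5849 of all genes. Members with the tract lay on both sides of the median gene, and EEF1A1 and EEF2, whose tracts are both 7 bases long, lay at 0.52 and -0.99 in HCT-116. Of the members compared in HCT-116, 0 with the tract were called higher and 3 lower, while 3 without it were called higher and 0 lower. EIF3CL and EIF2S2, also called, had no window. Among all genes 18.6% of those with the tract and 19% of those without it were called lower, and 4.76% and 5.33% higher. The median change was 0.15 over 22 members with the tract and 0.19 over 23 without it in HCT-116, and 0.08 over 22 and 0.27 over 24 in HepG2.

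Of all genes at 20 TPM or more, 65.2% lay above the median gene in fixed HCT-116 cells and 64% in fixed HepG2 cells. The genes of eIF2, which brings the initiator tRNA, did so in both lines. EIF2S2, its beta subunit, was at 18.6, 53.6 and 143.9 TPM (lowest, median and highest) in live and 6.91, 100.7 and 202.2 TPM in fixed HCT-116 cells, a change of 0.62 (1.54-fold higher) that 8 of 12 alternatives called, and 15 of 92 fixed cells exceeded every live cell. In HepG2 its change was 0.34, from 43 to 60.4 TPM. EIF2S1, the alpha subunit whose phosphorylation shuts down initiation under stress, lay at 0.32 (54.3 to 76.3 TPM) and 0.19 (50.8 to 64 TPM), and EIF2S3, the gamma subunit, at 0.30 (86.9 to 120 TPM) and 0.29 (44.9 to 60.9 TPM).

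The 5 subunits of eIF2B, the factor that recharges eIF2 with GTP, gave small and mixed values. EIF2B1, EIF2B2 and EIF2B3 lay at 0.13, 0.12 and 0.19 in HCT-116 and at 0.08, 0.26 and 0.43 in HepG2. EIF2B4 lay at -0.19 and -0.15, and EIF2B5, the catalytic subunit and the least abundant, at -0.21 in HCT-116 (9.91 and 9.63 TPM) and 0.26 in HepG2 (8.73 and 11.6 TPM). The single-protein factors EIF2A and EIF2D, which can deliver tRNA without eIF2, lay at 0.41 and 0.06 in HCT-116 and at 0.08 and 0.14 in HepG2.

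The 14 genes of eIF3, the scaffold on the small subunit, had a median change of 0.25 in HCT-116 and 0.14 in HepG2, with 11 and 10 above the median gene. Among all genes at 100 TPM or more, 77.7% lay above the median gene in HCT-116 and 79.1% in HepG2, with medians of 0.17 and 0.22. At 20 TPM or more 65.2% and 64% did. In HCT-116 the top of the list was EIF3D at 0.48 (176.1 to 276.0 TPM), which can bind the cap of selected mRNAs, followed by EIF3L at 0.47 (228.0 to 355.0 TPM) and EIF3E at 0.44 (406.6 to 617.1 TPM). EIF3L was above every live cell in 51 of 92 fixed cells, and EIF3D in 41, counted on TPM not set against the median gene. On that scale the median gene was itself 0.17 (log2) higher in fixed HCT-116 cells, and neither EIF3L nor EIF3D was called. EIF3D, EIF3L and EIF3E lay at 0.27, 0.35 and 0.28 in HepG2, where EIF3B was highest at 0.37. EIF3A, the largest subunit, was below the median gene in both lines, at -0.27 (69.7 and 65 TPM) and -0.25 (24.5 and 22.8 TPM). EIF3C, EIF3F, EIF3G, EIF3H, EIF3I, EIF3J, EIF3K and EIF3M lay between -0.10 and 0.31 in both lines. No eIF3 gene other than EIF3CL was called in either line.

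EIF3CL had the lowest relative change of any member in HCT-116, -1.78 (log2, 3.44-fold lower), with cells at 0, 26.3 and 116.7 TPM live and 0, 0.0395 and 69.1 TPM fixed, and was detected in 93.4% and 63% of them. In HepG2 it was at 85.4 ± 40.3 and 82.4 ± 42.2 TPM (-0.20). This value is uncertain, because EIF3CL and EIF3C are near-identical copies on chromosome 16 whose coding sequences (2742 and 2739 bases) share an unbroken run of 1869 bases, so short reads can be split between them. EIF3C itself was at 178.6 and 219.7 TPM in live and fixed cells of HCT-116 (0.13) and at 220.3 TPM in fixed cells of HepG2 (0.06). Between 87.6% and 95.6% of the CPM of EIF3CL was given to a predicted RefSeq model, XM_017023621.1, in the 4 groups.

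At the last steps of initiation, EIF5B, the GTPase of subunit joining, was at 7.53, 25.6 and 66.3 TPM in live and 11.9, 45 and 116.8 TPM in fixed HCT-116 cells, a change of 0.66 (1.58-fold higher) that 10 of 12 alternatives called. In HepG2 the change was 0.01 (22.8 and 25.6 TPM), and the difference between lines, -0.64, was not tested. EIF6, which keeps large subunits from joining early, lay at 0.33 in both lines (213.1 to 300.0 TPM and 154.6 to 215.4 TPM). Among the start-codon factors, EIF5, the GTPase activator of eIF2, lay at 0.40 (38.1 to 56.3 TPM) and 0.43 (46.9 to 70 TPM), while EIF1, the most abundant of them, lay at 0.10 (545.6 and 656.8 TPM) and 0.08 (336.7 and 393.2 TPM), and its paralog EIF1B at 0.10 and 0.33. EIF1AX and EIF1AD stayed between -0.07 and 0.13.

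EIF5A lay near the median gene in HCT-116, at 1268 ± 349.9 and 1290 ± 413.3 TPM (-0.14), and at 0.30 in HepG2 (187.1 ± 63 and 255.6 ± 104.6 TPM). Its paralog EIF5A2 lay at -0.46 in HCT-116 (2.28 and 1.86 TPM) and 0.46 in HepG2 (1.60 and 2.44 TPM). The intronless copy EIF5AL1 had a mean below 1 TPM in each group and was not compared. Its coding sequence equals that of EIF5A at 457 of 462 bases (98.9%), so its reads cannot be separated well from those of EIF5A. Of the 8 genes for the enzymes that make hypusine on eIF5A and diphthamide on eEF2, DOHH, which completes hypusine, was lower by far, at 20.5 ± 11.6 TPM live and 1.46 ± 2.73 TPM fixed in HCT-116 (-3.98) and at 6.54 ± 5.40 and 0.767 ± 1.83 TPM in HepG2 (-3.24). It was the only one of the 8 called in HCT-116, and in HepG2 DPH7 was called lower as well (-0.89). DHPS, the other hypusine enzyme, lay at 0.28 in HCT-116 (58.2 to 79 TPM) and 0.10 in HepG2 (52.1 to 61.8 TPM). DOHH thus differed in its change from both EIF5A and DHPS.

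Other genes of the pathway are listed by role. Over all genes, 5.99% were called higher and 20.6% lower in fixed HCT-116 cells, and 9.71% and 21% in HepG2. Of 6 genes for the eIF2 kinases and phosphatase subunits, PPP1R15A, the stress-induced subunit that restores eIF2, was called lower in HCT-116 (25.6 to 8.25 TPM, -1.80) and in HepG2 (42.6 to 3.77 TPM, -3.65), and no other was called. Of 22 cytosolic aminoacyl-tRNA synthetase and cofactor genes, 2 were higher (LARS, 0.71, and AIMP1, 0.68) and 1 lower (FARSA, -0.71) in HCT-116, and 0 were higher and 2 lower (FARSA, -1.17, and AARS, -0.69) in HepG2. Of 8 genes of poly(A)-binding proteins and partners, PABPN1 was lower in both lines (-1.37 and -1.01), and PABPC1, the partner of eIF4G on the mRNA tail, was higher in HepG2 (252.4 to 546.7 TPM, 0.97). HBS1L was the only termination and recycling gene called (0.60 in HCT-116), and 0 of 9 mitochondrial translation factor genes passed 1.5-fold in either line.

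Of the 4 members called lower in fixed HCT-116 cells, EIF4G1 has a reference transcript with 56.7% G and C over 5405 bases, EEF2 59.9% over 3158 bases, EEF2K 50.2% over 7398 bases and EIF3CL 54.8% over 2913 bases, against a median of 47.6% and 2958 bases over all genes compared. Members called higher fell on both sides of that median. EIF4EBP3 has 57% and EEF1A2 64.6%, in short transcripts of 693 and 1773 bases. EIF4G3 has 46.3% over 6397 bases, EIF5B 38.4% over 5741 bases and EEF1A1, which was not called, 42.5% over 3512 bases. Of 5 members above both medians (EEF2, EEF2K, EIF3B, EIF4ENIF1 and EIF4G1), 3 were called lower in HCT-116, where 44.6% of all such genes were, and 1 in HepG2, where 37.6% were. EIF3B and EIF4ENIF1 lay above the median gene in both lines. Across members, Spearman's coefficient of the change with GC content was -0.28 in HCT-116 (n = 57) and -0.20 in HepG2 (n = 58), against -0.48 and -0.30 across all genes, and with length it was -0.08 and -0.19, against -0.01 and -0.01. At a mean TPM of at least 5 the coefficient with GC content was -0.44 over 51 members in HCT-116 and -0.19 over 52 in HepG2. Across all such genes it was -0.50 and -0.29. With length it was 0.04 and -0.25 over these members, against -0.02 and -0.10. These are descriptions across genes that share their libraries, and GC content and length are themselves related (-0.43 and -0.45 across members).

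**Figure D4:**
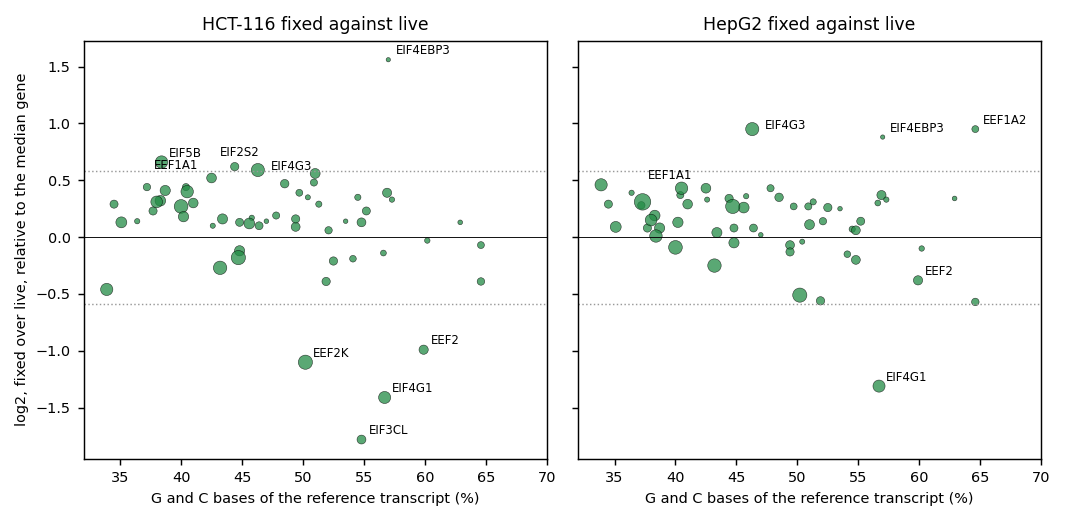
Relative log2 change (fixed over live) of each translation factor gene against the G and C content of its reference transcript, HCT-116 left and HepG2 right; the area of a point grows with transcript length and dotted lines mark 1.5-fold. EIF4G1 (56.7% G and C) lies at -1.41 and -1.31, EIF4G3 (46.3%) at 0.59 and 0.95.

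Base composition can be read from the coding sequence. For each of 4 genes, chosen for their direction of change, the 60 bases with the most G and C within a coding exon are given (GRCh38, GENCODE release 44), 5′ to 3′ on the strand of the gene, with each G and C in capitals. The first pair was lower in fixed HCT-116 cells and the second pair was not.
EIF4G1, exon 5 (chr3:184317334-184317393, plus strand): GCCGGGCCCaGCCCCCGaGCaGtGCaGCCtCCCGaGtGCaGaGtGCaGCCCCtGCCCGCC
EEF2, exon 2 (chr19:3984197-3984256, minus strand): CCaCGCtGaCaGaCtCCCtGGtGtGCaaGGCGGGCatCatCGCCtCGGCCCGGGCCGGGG
EIF4G3, exon 13 (chr1:20950052-20950111, minus strand): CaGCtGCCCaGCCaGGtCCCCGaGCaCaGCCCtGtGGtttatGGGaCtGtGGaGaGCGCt
EEF1A1, exon 5 (chr6:73518724-73518783, minus strand): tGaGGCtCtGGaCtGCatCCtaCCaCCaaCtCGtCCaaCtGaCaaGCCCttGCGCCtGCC
The share of G and C in these windows was 78.3% in EIF4G1 and 73.3% in EEF2, against 65% in EIF4G3 and 60% in EEF1A1. EIF4H, which lay below the median gene in both lines, reached 78.3% in its richest window too. These windows illustrate 4 genes and carry no relation across the members.

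More members were called between the lines than between treatments. Among live cells 23 of 56 members compared were at least 1.5-fold lower in HepG2 than in HCT-116, where 29.9% of all 12406 genes were, and 3 were higher, where 30.7% were. The members' median was -0.50 (log2) and 45 of 56 lay below the median gene. Among fixed cells 27 of 57 were lower, where 29.5% of all 12110 genes were, and 3 were higher, where 30.6% were, with a median of -0.54. The excess over all genes depends on the reference gene. Among live cells, 21 of 51 members at a mean of at least 5 TPM were lower, where 30.3% of all such genes were. With the reference gene also taken from those genes, the count was 14 of 51, where 27.9% of all such genes were lower. At 100 TPM or more, 15 of 26 members were lower and 0 higher among live cells, while 29.9% of all such genes were lower and 22.2% higher. Leaving out the cells with equal values gave 23 and 3 among live cells, and 27 and 2 among fixed cells.

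**Figure D5:**
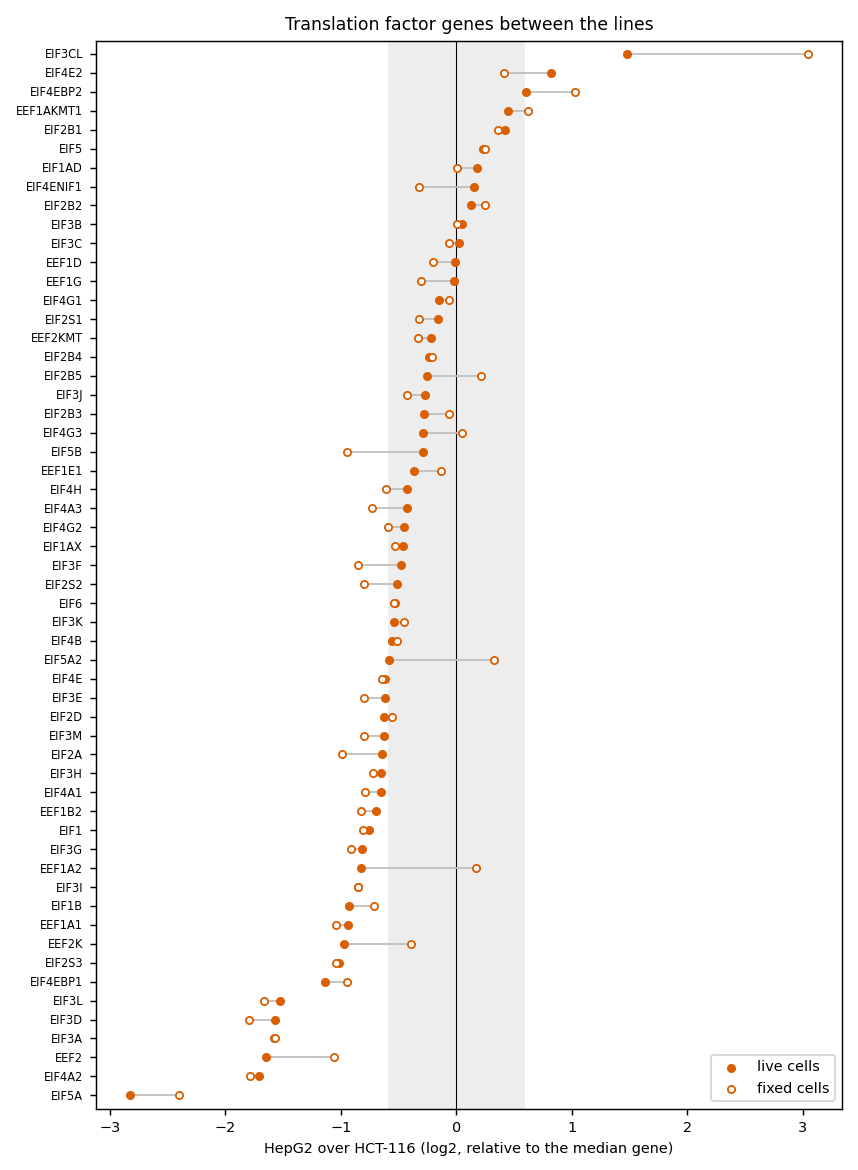
Relative log2 ratio of HepG2 over HCT-116 for each translation factor gene compared, in live cells (filled) and fixed cells (open), sorted by the value in live cells; the grey band spans 1.5-fold either way. EIF5A lies lowest (-2.83 live and -2.40 fixed) and EIF3CL highest (1.48 and 3.05), and most genes lie left of 0 in both.

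EIF5A gave the widest gap among live cells, while among fixed cells EIF3CL (3.05, log2) lay farther out than EIF5A (-2.40). Its live cells were at 322.7, 1330 and 1963 TPM (lowest, median and highest) in HCT-116 and at 20.2, 195.5 and 312.6 TPM in HepG2, so every live HepG2 cell was below every live HCT-116 cell. The mean was 6.78 times as high in HCT-116, and 5.05 times among fixed cells. Without reference to the median gene, EIF4A2 was 3.12 times, EEF2 2.99 times, EIF3A 2.84 times, EIF3D 2.83 times and EIF3L 2.76 times as high in live HCT-116 cells. EIF3D cells were at 96.9, 170.2 and 291.7 TPM in live HCT-116 and at 16.4 and 59.5 TPM (lowest and median) in live HepG2, and 63 of 68 live HepG2 cells were below every live HCT-116 cell. Among fixed cells EIF3D, EIF4A2, EIF3L and EIF3A lay at -1.80, -1.79, -1.67 and -1.57 (log2 relative), beside -1.57, -1.71, -1.53 and -1.58 among live cells. These genes kept nearly the same gap with and without fixation, whereas EEF2 lay at -1.65 live and -1.06 fixed.

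The difference was not shared by every subunit of a complex. For scale, 29.9% of all genes were lower and 30.7% higher in live HepG2 cells. Of the 14 eIF3 genes 8 were lower in live HepG2 cells (EIF3A, EIF3D, EIF3E, EIF3G, EIF3H, EIF3I, EIF3L and EIF3M), while EIF3B and EIF3C lay at 0.05 and 0.02 and EIF3CL at 1.48. In eIF2 the gamma subunit EIF2S3 was lower (86.9 and 44.9 TPM, -1.02), and EIF2S1 and EIF2S2 lay at -0.16 and -0.51. None of the 5 eIF2B genes was called, and EIF2B1 and EIF2B2 were above the median gene (0.42 and 0.13). In eEF1, EEF1A1 (-0.94), EEF1A2 (-0.83) and EEF1B2 (-0.70) were lower, whereas EEF1G and EEF1D lay at -0.02 and -0.01, with means of 965.5 and 995.3 TPM and of 271.9 and 283 TPM.

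EIF4E2 (49.1 and 90.9 TPM, 0.82) and EIF4EBP2 (4.48 and 7.10 TPM, 0.60, called under 7 of 13 alternatives) were the members besides EIF3CL that were higher in live HepG2 cells, and both act against cap-dependent initiation. EIF4EBP1, the abundant repressor of the same family, was lower there (162.8 and 77.2 TPM, -1.14), so these repressors did not share a direction. EIF4G1 was at 50 and 47.2 TPM in live cells and at 21.1 TPM in fixed cells of both lines, and lay at -0.15 and -0.06 between the lines. Of the 22 synthetase genes 11 were lower in live HepG2 cells and 0 higher (median -0.59), where 29.9% of all genes were lower and 30.7% higher.

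Detection separated the rare members. A value above 0 in at least 90% of the cells was found in HCT-116 for 52 members when live and 47 when fixed, and for 53 and 52 in HepG2. The same count over all genes was not made. Over all genes, a cell had a value above 0 for a mean of 12029 genes live and 10506 fixed in HCT-116. In HepG2 these means were 13858 and 12118, so fewer genes were detected in fixed cells in general. EIF5A2 was above 0 in 80.2% of live and 59.8% of fixed HCT-116 cells, EEF2K in 96.7% and 83.7%, and EEF1AKMT1 in 87.9% and 73.9%. In HepG2 EEF2K was above 0 in 97.1% and 85.5% of the cells, whereas EEF1A2 was in 79.4% and 88%. Fixed cells were also shallower, as given above, and the part of depth in these shares was not tested.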

How the data were processed

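Gene levels were used as the TPM values deposited by the authors, who quantified reads with kallisto 0.46.0 against RefSeq transcripts of GRCh38 and summed transcripts to genes with tximport. The transcript tables deposited by the authors hold CPM, not divided by length. Table columns name a line and treatment but not the labelled cell, so cells entered as unnumbered members of the 4 groups, and 12 of 346 labelled cells had no column. The smallest step of the CPM values gave the number of reads of a cell. The HepG2 experiment was done more than once, and the labels do not tell the runs apart. The genes and lists were chosen with earlier results of these data known.

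Means of TPM over cells were compared as log2 ratios relative to the median gene, for genes with a mean of at least 1 TPM over both groups, and called at 1.5-fold. Each group is 1 sample, so no test was run, and SDs and intervals cover cells and counting only. Named genes were the 5 highest and 5 lowest members of each comparison by relative change, the most abundant member of each role, the paralog sets, and every eIF2, eIF2B, eIF3, eEF1 and eEF2 gene. Others were named after their values were seen. Alternatives changed the scaling, pseudocount, filter, summary over cells, depth pairing and the cells kept. Those on genes at 20 TPM or more, on the least assigned cell and on ribosomal RNA without reference to the median gene were added after seeing the data. The comparison was tested on simulated data with known folds. GC content and length came from GENCODE release 44 reference transcripts. Python 3.11.15, numpy 2.4.6, pandas 2.3.3, scipy 1.17.1 and matplotlib 3.10.9 were used.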

Additional observations from a re-analysis of the deposited data

How the results depend on the processing

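No paired analysis was possible because the columns carry no replicate number that matches the labels and each line and treatment is 1 sample. In HCT-116 the count of members at least 1.5-fold higher in fixed cells was 4, and became 10 with the mean of log2(TPM + 1) (3.65% of all genes), 22 with log2(TPM + 0.1) (13.4%), which also moved the members' median to 0.51, 10 without reference to the median gene, 7 with no filter, and 1 each at a mean of at least 5 TPM, against the median of genes at 20 TPM or more, and with ribosomal RNA left out and no reference to the median gene. In HepG2 the 3 higher members became 8 with log2(TPM + 0.1), 9 with no filter and 1 at a mean of at least 5 TPM. The 1 lower member became 2 with log2(TPM + 0.1), 2 with ribosomal RNA left out and no reference to the median gene, 3 at a mean of at least 5 TPM, 3 with the median over cells, 4 with cells paired on total reads and 4 against the median of genes at 20 TPM or more. Among live cells the 23 members lower in HepG2 became 14 of 51 at a mean of at least 5 TPM, where 27.9% of all genes were lower, and 35 of 60 with no filter, where 33% were. Both settings also move the reference gene. With that gene kept, 21 of 51 members at a mean of at least 5 TPM were lower, where 30.3% of all such genes were. The median summed level became 17997 TPM in live HCT-116 and 10367 TPM in live HepG2 cells with ribosomal RNA left out and cells rescaled, a step that in live HepG2 cells also fills up a total of which the listed genes held 88%. EIF4EBP3 in HepG2 changed sign, to -0.07, with cells paired on total reads. The cause of these shifts was not tested. Between fixed and live cells, EIF4G1 kept its call in both lines under every alternative that compared it. So did EEF2, EEF2K and EIF3CL in HCT-116, and EEF1A2 and EIF4G3 in HepG2. The EIF3CL value stays uncertain, because short reads can be split between it and EIF3C.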
